A study of Caenorhabditis elegans with 26 samples.

Results

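Core and linker histone genes were taken as every row of the count table whose symbol is his- or hil- followed by a number, together with htz-1. They were 81 of 42533 genes. Histones are the proteins that DNA is wound around: the core classes H2A, H2B, H3 and H4 form the nucleosome, and H1, the linker class, binds the DNA between nucleosomes. Most animal core histone genes have no intron, lie in clusters with many near-identical copies and are expressed in S phase, and in most animals their mRNA ends in a stem-loop in place of a poly(A) tail. Replacement variants such as H3.3 and H2A.Z, and linker histones in C. elegans, come mostly from genes with introns and ordinary polyadenylated mRNA.

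The series asked how the level of flp-17, which encodes a FMRFamide-like neuropeptide of the BAG sensory neurons, relates to gene expression in whole C. elegans, with 26 poly(A) libraries of day 1 adults from 5 strains. All 5 strains carry the reporter zcls4[hsp-4p::GFP]V, GFP under the promoter of the endoplasmic reticulum chaperone gene hsp-4. AEF231 (6 libraries) has that reporter alone after outcrossing into N2 and is the control here. AEF276 (5 libraries) adds the flp-17 allele n4894, and its sample titles read flp17(lof), for loss of function. AEF378 (5 libraries) carries the array ashEx67, which holds flp-17::GFP under gcy-31p, a promoter active in BAG neurons, with the marker coel::RFP. AEF373 (5 libraries) carries an array of flp17p::FLP-17 with the flp-17 3′UTR and unc-122p::mCherry, crossed into AEF231 and out of a flp-17 null background. AEF149 (5 libraries) carries the array ssrEx1193, which holds flp-17::GFP under flp-17p with the marker myo-3p:mCherry, in the SJ4005 background, which was not outcrossed. The arrays are extrachromosomal and not in every animal, so AEF378, AEF373 and AEF149 were sorted for their marker 24 hours before collection, whereas animals of AEF231 and AEF276 went through washing and replating without the sorter. Each library came from a pool of 200 to 500 animals, and sorting, background and genotype cannot be told apart where they change together.

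Library totals lay between 9659877 and 15528669 counts, and the 81 genes held 0.143% to 0.183% of them. The level of flp-17 followed the labels: 2.18 to 5.56 CPM (counts scaled to library size) in AEF231, 0 to 0.764 in AEF276, 6.45 to 9.18 in AEF378, 262 to 332 in AEF373 and 353 to 409 in AEF149. The labels give a batch number: AEF276 and AEF149 lie in batch 1 alone, and AEF231 (4 and 2 libraries), AEF378 and AEF373 (3 and 2 each) lie in both. Because the labels do not say whether libraries came from separate cultures, each p-value measures spread among the libraries at hand, which may be technical. In whole animals, fewer cells of a type and less RNA per cell cannot be told apart.

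Reads were distributed very unequally between genes with and without introns. The 17 genes with introns, all with an annotated 3′ untranslated region, held 95.7% of the 476831 histone reads, and none of them was without reads. The 64 single-exon genes, none of which has an annotated 3′ untranslated region, held 4.27%. Of these 64 genes, 27 had no read in any library, which allows at most 0.0100 CPM each over the pooled libraries (3 counts, counting error only), and 15 passed the filter on low counts. How the counting treated reads that fit several genes is not given in the sources used here. The Ensembl annotation gives 35 of the single-exon genes a symbol that several loci share, a mark of near-identical copies. Of these 35 genes 26 had no read and the highest had 127 reads, 427 in all, whereas of the 29 single-exon genes with a symbol of their own 1 had no read, the short his-39, and together they had 19931. No genome sequence was at hand, so neither the identity of copies nor the stem-loop was examined, and whether unassigned reads or absent poly(A) tails account for the low counts was not tested.

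**Figure D1:**
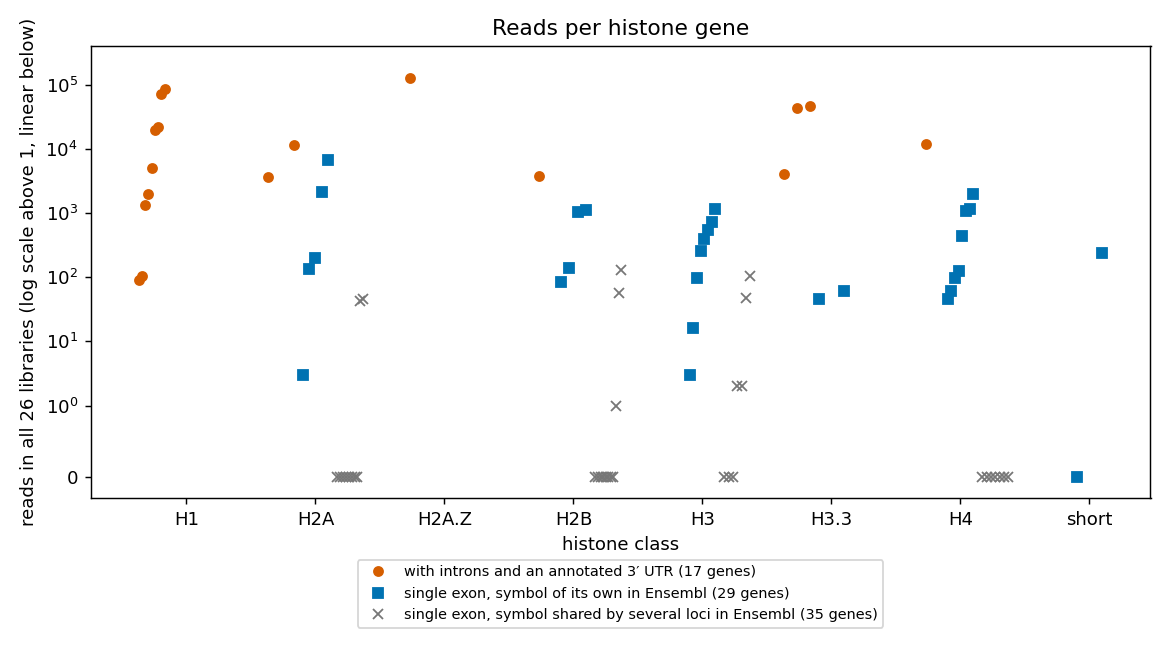
Reads of each of the 81 histone genes summed over the 26 libraries (log scale above 1, linear below), by histone class, with circles for 17 genes with introns, squares for 29 single-exon genes with a symbol of their own and crosses for 35 single-exon genes whose symbol is shared by several loci. Genes with introns lie between 91 and 126065 reads, and 26 of the 35 crosses lie at 0.

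Summing copies did not raise them above the filter. The 14 sums over loci that share a symbol (35 genes, his-57 left out because it has introns) contained 9 sums without a read, and no sum passed the filter. The 3 highest were his-58 + his-66 (H2B) with 183 reads, his-45 + his-55 (H3) with 150 and his-47 + his-65 (H2A) with 89. The his-58 + his-66 sum held 36, 36, 49, 36 and 26 reads for AEF231, AEF276, AEF378, AEF373 and AEF149. The his-45 + his-55 sum held 24, 30, 28, 23 and 45 reads in the same order of strains. None of these sums was tested.

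By position, with gaps of up to 20000 bases joined, 67 members lay in 13 clusters and 14 lay alone (Ensembl annotation of WBcel235, the assembly also called ce11). The largest cluster (chromosome II, 13817760 to 13828697) had 13 genes and 11 reads in all 26 libraries. A cluster of 6 genes, his-49 to his-54 (chromosome V, 8847393 to 8854053), had 0 reads, and its neighbour with 8 genes (chromosome V, 8889488 to 8898539) had 77. The 4 genes his-59 to his-62 (chromosome IV, 7485834 to 7488659), 1 of each core class, had 6332 reads, and the pair his-67 and his-68 (chromosome I, 9988452 to 9989515) had 7801. The 3 intron-bearing core genes his-35, his-41 and his-37 (chromosome V, 9544659 to 9547607) had 26808. All 9 linker histone genes lay outside clusters.

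Per kilobase of the longest annotated transcript, the H2A.Z gene htz-1 had the highest level in AEF231, 578 ± 39.5 CPM per kb (SD, n = 6). Next came the linker genes hil-4 (273 ± 31.1) and hil-5 (270.3 ± 38.3) and the H3.3 genes his-74 (251 ± 13.7) and his-72 (243 ± 23.3), in that order. hil-4 and hil-5, and his-74 and his-72, differed by less than the SD of either gene, whereas hil-5 and his-74 differed by less than the SD of hil-5 and more than that of his-74. A lower group was his-24 (89.9 ± 21.8), his-37 (89.4 ± 16.5), hil-2 (84.6 ± 4.90) and his-35 (77.2 ± 6.76). Of its neighbours, hil-2 and his-35 differed by more than either SD. The highest single-exon gene was his-68, an H2A gene, at 57.5 ± 5.94 CPM per kb. By share of reads, not corrected for length, H1 genes held 43.5% of the histone reads, H2A.Z 26.4%, H3.3 19.4%, H2A 5.07%, H4 3.51%, H2B 1.32% and H3 0.701%. The remainder was his-73, a short gene that, like his-39, was given no class.

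Across strains, the called differences were mostly among linker histones. Each strain was compared with AEF231 by edgeR's quasi-likelihood test over 13315 genes, with strain and batch as terms and an adjusted p below 0.05 as the threshold. The 4 comparisons share the AEF231 libraries. Of the 30 histone genes that passed the filter, 3 were higher and 3 lower in AEF276, against 11.2% and 9.08% of all genes tested. In AEF378, 3 were higher and 0 lower, against 7.68% and 5.92% of all genes. 10 genes had an unadjusted p below 0.05 there in either direction, and DESeq2 too called 0 lower. In AEF373, 6 were higher and 2 lower, against 17.9% and 16.9%. In AEF149, 2 were higher and 5 lower, against 6.51% and 11%. A test of any difference among the 5 strains called 15 of the 30, against 62.3% of all genes. These shares were not tested against those of all genes, and what follows concerns which histone genes were called. Libraries that did not overlap with AEF231 were seen for 3 histone genes on the higher and 2 on the lower side in AEF276 (4.45% and 5.56% of all genes), 1 and 0 in AEF378 (3.33% and 2.9%), 3 and 1 in AEF373 (7.97% and 6.61%), and 1 and 3 in AEF149 (4.83% and 7.91%). The median log2 fold change of the 30 genes was 0.01, 0.13, 0.08 and 0.02 for AEF276, AEF378, AEF373 and AEF149, and that of all genes tested lay between -0.01 and 0.01.

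**Figure D2:**
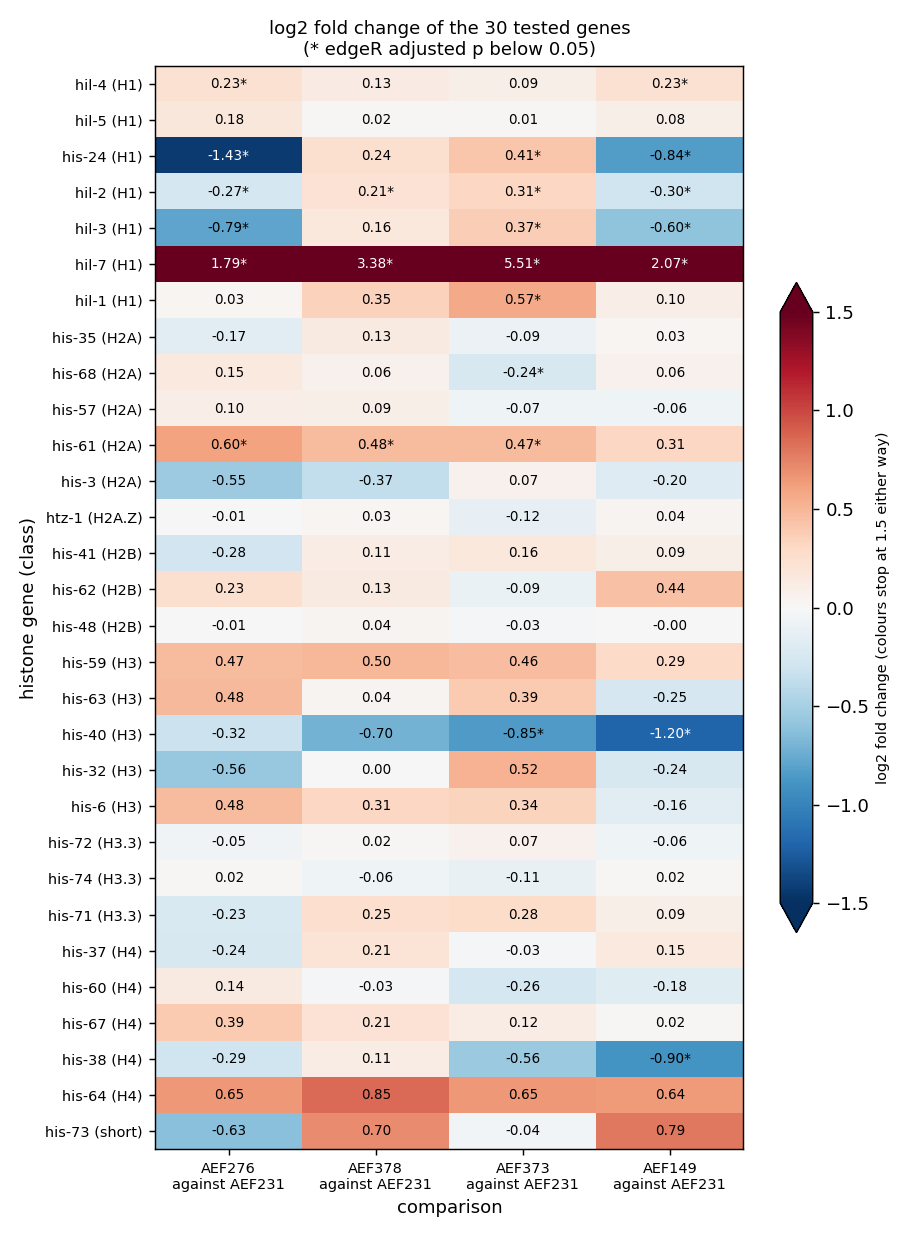
Log2 fold changes of the 30 histone genes that passed the filter in each strain against AEF231, ordered by class and mean level, with red for higher, blue for lower (colours stop at 1.5) and an asterisk for an edgeR adjusted p below 0.05. hil-7 rose in all 4 strains, his-24, hil-3 and hil-2 fell in AEF276 and AEF149, and no H3.3, H2A.Z or H2B gene has an asterisk.

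The linker gene his-24 (chromosome X, 14490094 to 14491119, forward strand) fell in AEF276 and AEF149 and rose in AEF373. It encodes a linker histone known for its part in germ line gene silencing. In AEF231 it stood at 60.3 CPM at the lowest, 82.2 at the median and 116 at the highest. The AEF276 libraries held 42.2, 33.4, 32.3, 31.4 and 26.8 CPM and the AEF149 libraries 44.8, 54.1, 47.8, 53.1 and 51.99. All 10 lay below every AEF231 library. The AEF378 libraries held 107, 93.3, 117, 83.6 and 78.6 CPM and the AEF373 libraries 118, 118, 108, 90.8 and 101, and both overlapped AEF231. The log2 fold change was -1.43 ± 0.10 (SE) in AEF276, a 2.697-fold decrease with edgeR adjusted p = 7.6e-10. In AEF149 it was -0.84 ± 0.10 (adjusted p = 1.1e-06) and in AEF373 0.41 ± 0.09 (adjusted p = 0.0012). In AEF378 the difference of 0.24 ± 0.09 did not pass (adjusted p = 0.089). Within AEF231 the 2 libraries of batch 2 were the lowest, and in a fit of strain by batch the AEF373 difference was 0.30 in batch 1 (edgeR adjusted p = 0.045) and 0.62 in batch 2 (0.015). For hil-3, described next, the same fit gave 0.27 in batch 1 (edgeR adjusted p = 0.067) and 0.53 in batch 2 (0.032). In a fit of the batch 1 libraries alone, which has fewer libraries, the AEF373 calls of his-24 and hil-3 were lost (0.30 and 0.27, adjusted p = 0.078 and 0.075).

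An antisense non-coding gene, M163.16 (chromosome X, 14490327 to 14490548), lies inside the his-24 span, and another, M163.19, overlaps its start. M163.16 averaged 9.905 ± 0.998 CPM in AEF276, 14.7 ± 0.871 in AEF149, 24.2 ± 4.22 in AEF231, 29.5 ± 4.72 in AEF378 and 34.1 ± 4.77 in AEF373, and the means of his-24 stood in the same order. Over the 26 libraries the log2 CPM of the pair had Pearson r = 0.97. Since strand is not given for the counting, reads of his-24 and M163.16 cannot be told apart. With their counts added, the his-24 calls in AEF276, AEF373 and AEF149 remained. M163.16 alone passed in the same directions there (-1.38 ± 0.10, 0.52 ± 0.09 and -0.82 ± 0.10, edgeR adjusted p = 1.7e-13, 8.4e-06 and 1.8e-08). The added counts therefore cannot show which gene the reads come from. M163.16 was also higher in AEF378 (0.30 ± 0.09, adjusted p = 0.018), where his-24 did not pass.

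**Figure D3:**
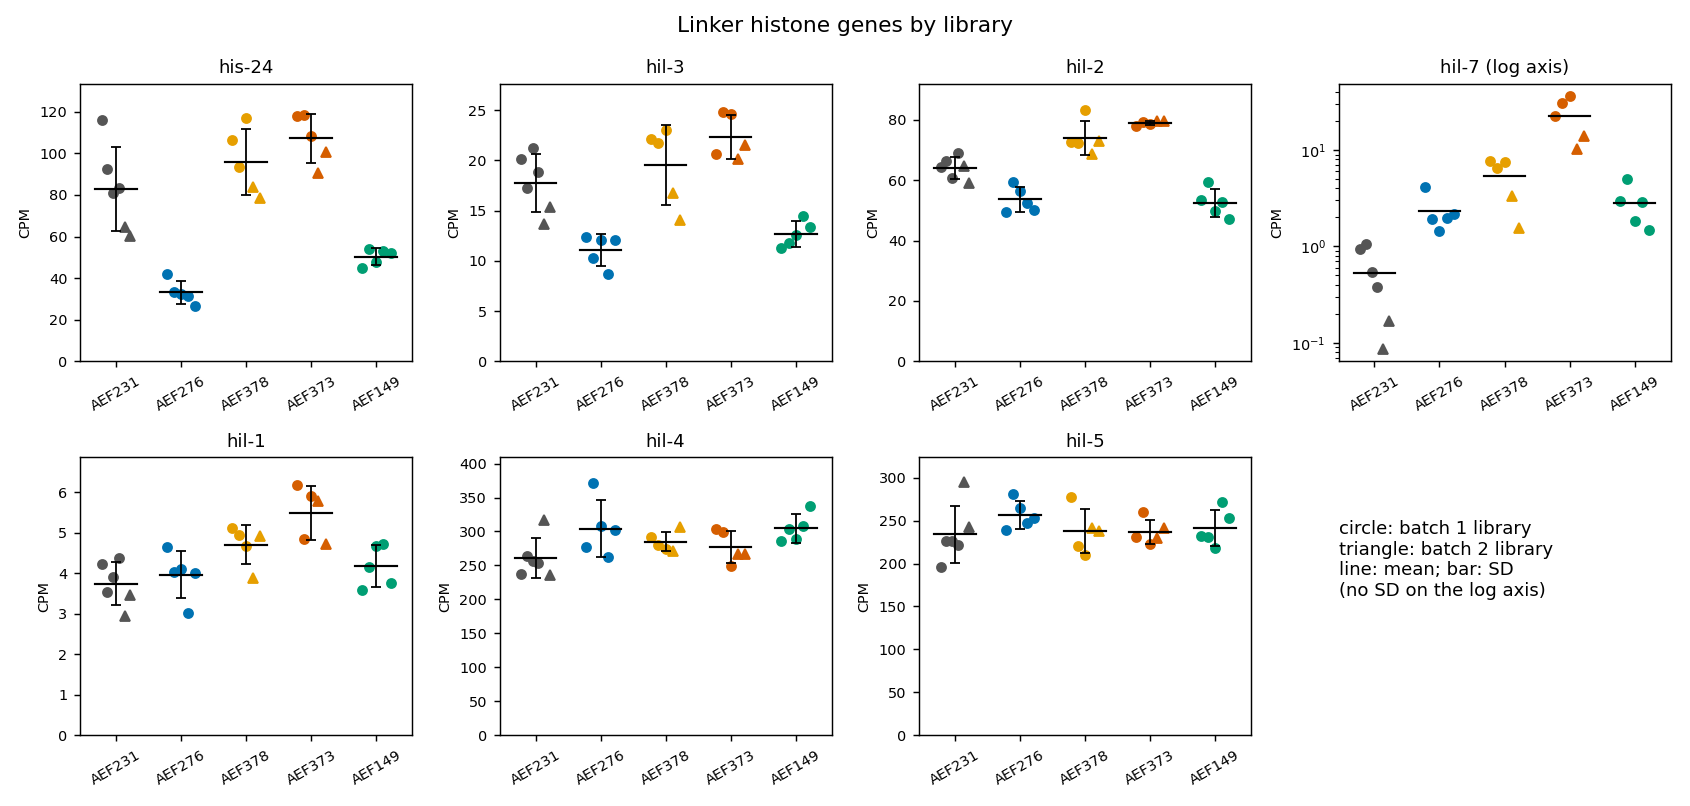
CPM of 7 linker histone genes in each library by strain, with circles for batch 1, triangles for batch 2, a line for the mean and a bar for the SD (hil-7 on a log axis, without SD). The AEF276 and AEF149 libraries of his-24, hil-3 and hil-2 sit low, and hil-7 is highest in AEF373.

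The linker genes hil-3 and hil-2 also fell in AEF276 and AEF149 and rose in AEF373. hil-3 (chromosome X, 8159169 to 8160084, forward strand) stood at 13.6 CPM at the lowest, 18.03 at the median and 21.3 at the highest in AEF231. AEF276 libraries held 12.3, 10.3, 12.03, 8.69 and 12.1 CPM, and AEF149 libraries 11.2, 11.8, 12.5, 14.4 and 13.3. All AEF276 values lay below AEF231, and 1 AEF149 library reached into its lower range. AEF378 libraries held 22.1, 21.7, 23.1, 16.7 and 14.01 CPM and AEF373 libraries 20.6, 24.8, 24.6, 20.2 and 21.5. The log2 fold changes were -0.79 ± 0.11 in AEF276 (edgeR adjusted p = 6.4e-07), -0.60 ± 0.10 in AEF149 (2.5e-05) and 0.37 ± 0.10 in AEF373 (0.0023). In AEF378 the value of 0.16 ± 0.10 did not pass (adjusted p = 0.31).

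hil-2 (chromosome IV, 6294240 to 6295217, forward strand) moved the same way by smaller amounts. In AEF231 it stood at 58.9 CPM at the lowest, 64.4 at the median and 69.01 at the highest. AEF373 libraries held 78.01, 79.2, 78.8, 79.6 and 79.5 CPM and AEF378 libraries 72.6, 72.5, 83.4, 68.7 and 72.98. Every AEF373 library lay above AEF231, while 1 AEF378 library lay below the AEF231 maximum. AEF276 libraries held 49.6, 59.4, 56.5, 52.5 and 50.3 CPM and AEF149 libraries 53.4, 59.6, 49.9, 52.9 and 47.2, with 1 library of each inside the AEF231 range. The log2 fold changes were -0.27 ± 0.06 in AEF276, -0.30 ± 0.06 in AEF149, 0.21 ± 0.06 in AEF378 and 0.31 ± 0.06 in AEF373, with edgeR adjusted p of 0.0018, 3.3e-04, 0.01 and 4.5e-05. The AEF378 call was lost without AEF378 replicate 3 (0.17, adjusted p = 0.059) and with the batch 1 libraries alone (0.21, adjusted p = 0.076).

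hil-7 (chromosome IV, 6646312 to 6646972, forward strand), a short linker histone gene of 66 codons, was the only histone gene called higher in all 4 strains. It had 35 reads over the 6 AEF231 libraries, at 0.0868 CPM at the lowest, 0.463 at the median and 1.06 at the highest. AEF276 libraries held 4.14, 1.94, 1.43, 1.95 and 2.19 CPM and AEF149 libraries 2.93, 4.98, 1.82, 2.902 and 1.48. AEF378 libraries held 7.66, 6.55, 7.62, 3.31 and 1.55 CPM. AEF373 libraries held 22.8, 30.5, 36.2, 10.2 and 14.1 CPM, 1355 reads in all. No library of another strain reached down into the AEF231 range. The log2 fold change was 5.51 ± 0.30 in AEF373, a 45.6-fold increase (edgeR adjusted p = 3.4e-14), 3.38 ± 0.35 in AEF378 (7.6e-08), 2.07 ± 0.38 in AEF149 (2.1e-04) and 1.79 ± 0.40 in AEF276 (0.0022). In each of the 3 strains with both batches, the batch 2 libraries were the lowest. The difference was present within both: in AEF373 5.32 in batch 1 and 6.46 in batch 2, and in AEF378 3.29 and 4.15. The AEF231 libraries of batch 2, replicates 5 and 6, held only 1 and 2 hil-7 reads, so the size of the batch 2 values is uncertain. AEF373 also exceeded AEF378 in a direct comparison, since AEF378 minus AEF373 was -2.13 ± 0.23 (adjusted p = 1.8e-07).

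The other linker genes were called in fewer strains. hil-1 (chromosome V, 14949777 to 14952799, forward strand) stood at 2.95 CPM at the lowest, 3.72 at the median and 4.37 at the highest in AEF231 and at 6.19, 4.84, 5.92, 5.79 and 4.71 in AEF373, above it in every library. The AEF373 log2 fold change was 0.57 ± 0.15 (edgeR adjusted p = 0.0034). The other strains overlapped AEF231: AEF276 libraries held 4.64, 4.02, 4.105, 3.03 and 4.00 CPM, AEF378 libraries 5.11, 4.93, 4.67, 3.89 and 4.91 and AEF149 libraries 3.58, 4.16, 4.68, 4.72 and 3.75. hil-4 (chromosome V, 4754313 to 4755453, forward strand), with hil-5 the linker gene of highest level per kilobase, stood at 236 CPM at the lowest, 255 at the median and 317 at the highest in AEF231. AEF276 libraries held 277, 372, 308, 262 and 302 CPM, AEF149 libraries 286, 304, 288, 308 and 338, AEF378 libraries 292, 280.1, 275, 271 and 306 and AEF373 libraries 304, 299.6, 248, 266 and 267, all overlapping AEF231. For AEF149 and AEF378 the overlap rested on AEF231 replicate 5 alone (317 CPM, batch 2), with the next AEF231 library at 264 CPM. Its log2 fold changes of 0.23 ± 0.08 in AEF276 and 0.23 ± 0.08 in AEF149 passed narrowly (edgeR adjusted p = 0.043 and 0.047). hil-5 passed in no strain, with means from 234 to 257 CPM. hil-6 (106 reads) and hil-8 (91 reads) fell under the filter.

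Both hil-4 calls were lost on leaving out single libraries. That in AEF276 was lost on leaving out any of 17 libraries (AEF231 replicates 1, 2, 3, 4 and 6, AEF276 replicates 2, 3 and 5, AEF378 replicates 1, 2, 4 and 5, and all 5 of AEF373), with values from 0.12 to 0.28. That in AEF149 was lost without any of 9 (AEF149 replicates 2, 4 and 5, AEF231 replicates 1, 3 and 4, AEF276 replicate 5 and AEF378 replicates 3 and 5), with values from 0.19 to 0.31. Over all leave-outs the edgeR adjusted p ran from 0.0079 to 0.27 in AEF276 and from 0.0012 to 0.13 in AEF149.

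Among core histone genes, H3.3 and H2A.Z included, 22 passed the filter. Of these 1 was called in AEF276 (higher), 1 in AEF378 (higher), 3 in AEF373 (1 higher, 2 lower) and 2 in AEF149 (lower), all single-exon genes. Among all genes tested 11.2% were higher in AEF276, 7.68% were higher in AEF378, 17.9% were higher and 16.9% lower in AEF373, and 11% were lower in AEF149, so each of these counts was below the general rate. The H2A gene his-61 (chromosome IV, 7485834 to 7486217, reverse strand) stood at 3.299 CPM at the lowest, 5.35 at the median and 7.16 at the highest in AEF231. AEF276 libraries held 8.69, 8.55, 8.496, 9.08 and 8.19 CPM, AEF378 libraries 6.43, 7.97, 8.02, 7.61 and 5.82, AEF373 libraries 7.66, 9.97, 6.51, 5.39 and 6.58 and AEF149 libraries 6.58, 5.72, 6.90, 8.61 and 7.42. AEF276 alone lay above every AEF231 library. Its log2 fold changes were 0.60 ± 0.16 in AEF276, 0.48 ± 0.16 in AEF378 and 0.47 ± 0.16 in AEF373 (edgeR adjusted p = 0.0062, 0.036 and 0.017), and in AEF149 0.31 ± 0.16 did not pass (0.2). AEF231 replicates 1 and 5 were its lowest libraries. Without replicate 1 each of these calls was lost, and the value in AEF276 became 0.45 (adjusted p = 0.051). The call in AEF378 was also lost without AEF231 replicate 3 or 5 or AEF378 replicate 2, 3 or 4 (values from 0.38 to 0.56 over all leave-outs), and that in AEF373 without AEF231 replicate 5 or AEF373 replicate 2 (0.37 to 0.57). Its neighbour in the same cluster, the H3 gene his-59, the highest single-exon H3 gene, passed in no strain in the fit over all 26 libraries. his-59 stood at 2.54 CPM at the lowest, 2.74 at the median and 4.13 at the highest in AEF231. AEF276 libraries held 4.47, 4.02, 3.53, 3.71 and 5.14 CPM, AEF378 libraries 3.21, 3.605, 6.09, 5.05 and 3.91, AEF373 libraries 5.07, 4.74, 4.07, 3.59 and 3.74 and AEF149 libraries 3.51, 3.94, 4.12, 2.81 and 3.93. The his-59 log2 fold changes were 0.47 ± 0.20, 0.50 ± 0.19, 0.46 ± 0.19 and 0.29 ± 0.20 (adjusted p from 0.053 to 0.36). By batch, its AEF373 value was 0.79 in batch 1 (edgeR adjusted p = 0.0068) and -0.0840 in batch 2 (0.92), and the difference between batches did not pass (adjusted p = 0.43).

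The adjacent chromosome X genes his-40 (H3, 7310110 to 7310520) and his-38 (H4, 7309564 to 7309875) were lower in AEF149. his-40 stood at 1.95 CPM at the lowest, 2.58 at the median and 3.58 at the highest in AEF231. AEF276 libraries held 2.36, 2.803, 2.67, 1.17 and 0.857 CPM, AEF378 libraries 1.796, 1.14, 1.22, 2.56 and 1.46, AEF373 libraries 1.81, 1.68, 1.04, 1.496 and 1.42 and AEF149 libraries 1.07, 1.49, 0.872, 0.453 and 1.48. The AEF149 and AEF373 libraries of his-40 all lay below AEF231. Its log2 fold change was -1.20 ± 0.32 in AEF149 and -0.85 ± 0.30 in AEF373 (edgeR adjusted p = 0.0052 and 0.023). The AEF373 call was lost without AEF231 replicate 1 or 6 or AEF373 replicate 3 or 5, with values from -0.95 to -0.71. his-38 stood at 3.33 CPM at the lowest, 4.35 at the median and 5.39 at the highest in AEF231. AEF276 libraries held 3.71, 2.16, 3.15, 3.81 and 4.76 CPM, AEF378 libraries 5.96, 3.51, 6.09, 5.295 and 2.82, AEF373 libraries 3.18, 2.27, 1.85, 2.99 and 4.56 and AEF149 libraries 2.58, 1.71, 2.22, 3.17 and 1.83. In the fit over all 26 libraries his-38 passed in AEF149, at -0.90 ± 0.24 (adjusted p = 0.0068), and the AEF373 value was -0.56 ± 0.23 (adjusted p = 0.055). By batch, the AEF373 value passed in batch 1 (-0.85, edgeR adjusted p = 0.021) and not in batch 2 (-0.19, 0.83), with no call on the difference between batches (0.68). Both genes have few reads, 537 and 1062 over the 26 libraries.

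The most highly expressed single-exon gene, his-68 (H2A, chromosome I, 9989132 to 9989515, forward strand), stood at 19.3 CPM at the lowest, 22.3 at the median and 24.9 at the highest in AEF231. AEF276 libraries held 31.1, 21.8, 23.4, 24.3 and 21.2 CPM, AEF378 libraries 27.3, 22.2, 22.4, 24.1 and 19.4, AEF373 libraries 17.2, 20.3, 18.5, 17.5 and 20.2 and AEF149 libraries 23.2, 24.4, 21.7, 22.04 and 23.03. It was lower in AEF373 alone, at -0.24 ± 0.09 (edgeR adjusted p = 0.044). That call was lost under DESeq2 (adjusted p = 0.051) and on leaving out any of 13 libraries (AEF231 replicates 1, 2, 3, 5 and 6, AEF276 replicates 2 and 3, AEF373 replicates 1, 3, 4 and 5, and AEF378 replicates 2 and 4), with values from -0.27 to -0.18.

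In the fit over all 26 libraries, core genes with introns, H3.3 and H2A.Z passed in no comparison with AEF231. htz-1, the single H2A.Z gene (chromosome IV, 4446216 to 4446999, forward strand), stood at 382 CPM at the lowest, 433 at the median and 458 at the highest in AEF231. AEF276 libraries held 422, 412, 451, 414 and 424 CPM, AEF378 libraries 439, 373, 496, 429 and 422, AEF373 libraries 378, 399, 397, 379 and 393 and AEF149 libraries 423, 439, 432, 464 and 442. Each strain overlapped AEF231 for htz-1, while the AEF373 libraries lay below every AEF276 and AEF149 library. The 95% intervals of its log2 fold change were, for AEF276, AEF378, AEF373 and AEF149 in turn, -0.12 to 0.10, -0.08 to 0.13, -0.23 to -0.02 and -0.06 to 0.15. his-72 (H3.3, chromosome III, 12367475 to 12369050, reverse strand) stood at 141 CPM at the lowest, 148 at the median and 182 at the highest in AEF231. AEF276 libraries held 151, 155, 149, 141 and 144 CPM, AEF378 libraries 183, 140.2, 157, 154 and 144, AEF373 libraries 162.7, 174, 159, 147 and 162 and AEF149 libraries 136, 143, 141.8, 148 and 167. Its intervals were -0.18 to 0.07, -0.10 to 0.14, -0.06 to 0.19 and -0.19 to 0.06 in the same order. The H3.3 gene his-74 had means from 135 to 146 CPM and his-71 from 11.1 to 15.3. Of the pair, his-71 passed the test of any difference among the 5 strains (edgeR adjusted p = 0.00374). In the fit of strain by batch, both passed for AEF373 in batch 1 and not in batch 2: his-74 was -0.22 (edgeR adjusted p = 0.0092) and 0.0656 (0.75), and his-71 was 0.42 (0.019) and 0.0307 (0.96). The batch differences of these effects did not pass (adjusted p = 0.34 and 0.63). his-69 and his-70, single-exon genes of the H3.3 group, had 46 and 61 reads in all.

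The intron-bearing genes his-35 (H2A), his-41 (H2B) and his-37 (H4) share a cluster on chromosome V. his-35 stood at 32.8 CPM at the lowest, 38.8 at the median and 42.3 at the highest in AEF231. AEF276 libraries held 34.6, 34.5, 31.98, 34.9 and 30.6 CPM, AEF378 libraries 44.7, 34.9, 44.5, 46.8 and 41.2, AEF373 libraries 32.6, 36.6, 36.8, 33.8 and 42.03 and AEF149 libraries 35.3, 37.4, 37.8, 43.7 and 37.1. his-41 stood at 10.8 CPM at the lowest, 11.7 at the median and 13.97 at the highest in AEF231. AEF276 libraries held 11.98, 10.8, 8.496, 10.3 and 9.43 CPM, AEF378 libraries 13.9, 16.2, 10.9, 12.9 and 10.6, AEF373 libraries 10.8, 15.2, 16.6, 10.97 and 13.2 and AEF149 libraries 13.7, 14.9, 11.2, 15.2 and 11.3. his-37 stood at 30.3 CPM at the lowest, 37.8 at the median and 49.8 at the highest in AEF231. AEF276 libraries held 41.1, 31.05, 30.4, 33.8 and 32.1 CPM, AEF378 libraries 51.1, 37.5, 49.9, 40.5 and 40.5, AEF373 libraries 38.4, 35.04, 40.4, 31.5 and 40.4 and AEF149 libraries 40.5, 42.6, 43.5, 49.2 and 44.9. All 3 had their lowest mean in AEF276, at log2 fold changes of -0.17 ± 0.08, -0.28 ± 0.13 and -0.24 ± 0.10, none of which passed (edgeR adjusted p = 0.12, 0.12 and 0.095). In the test of any difference among the 5 strains, which 62.3% of all genes passed, all 3 did (edgeR adjusted p = 0.0109, 0.0319 and 0.00403). his-41 and his-37 overlap the genes C50F4.6 and nstp-10 (his-37 at its end only), with which they could share reads. his-57, an intron-bearing H2A gene that overlaps klp-12, had means from 11.6 to 13.1 CPM and passed nowhere.

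Sums over classes moved less than single genes. Much of the H1 sum came from hil-4 and hil-5. The H1 sum over 9 genes was 665 ± 49.2 CPM in AEF231 (SD, n = 6), 666 ± 60.01 in AEF276, 669 ± 39.9 in AEF149, 723 ± 37.1 in AEF378 and 752 ± 46.7 in AEF373 (n = 5 each). It rose in AEF373 by 0.18 ± 0.06 (edgeR adjusted p = 0.014). In AEF378 its value of 0.12 ± 0.06 did not pass (adjusted p = 0.16). AEF378 and AEF373 did not differ in the H1 sum at the threshold (AEF378 minus AEF373 -0.06 ± 0.06, adjusted p = 0.63). In AEF276 its log2 fold change was -0.01 ± 0.06 with a 95% interval of -0.13 to 0.11, although his-24, hil-3 and hil-2 fell there. The H2A, H2B, H4 and H3 with H3.3 sums passed in no comparison with AEF231. Their log2 fold changes lay between -0.12 and 0.18. The H3 sum was mostly H3.3: in AEF231 it stood at 323 CPM, with 312 from intron-bearing H3.3 genes and 10.6 from single-exon H3 genes. It therefore says little about the single-exon H3 genes.

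Of the 60 single-exon core genes, 26 had no read and 14 passed the filter, and the H2A gene his-68 held 6651 of their 20010 reads. Summed, the 60 genes stood at 64.5 ± 4.17 CPM in AEF231, 73.4 ± 6.05 in AEF276, 70.05 ± 7.03 in AEF378, 64.8 ± 1.85 in AEF149 and 62.5 ± 5.84 in AEF373. Every AEF276 library lay above AEF231, and the log2 fold change of 0.18 ± 0.07 was at the threshold (edgeR adjusted p = 0.044). It did not pass under DESeq2 (0.17, adjusted p = 0.080), with the sum's own TMM factors (0.15, 0.11), or on leaving out any of 20 of the 26 libraries: all but AEF149 replicates 1 to 5 and AEF378 replicate 3. Over these leave-outs its value lay between 0.11 and 0.20. The other strains did not pass, at 0.12 ± 0.06 in AEF378, -0.05 ± 0.06 in AEF373 and 0.00 ± 0.07 in AEF149. By class in AEF276, the single-exon sums were 0.20 ± 0.09 for H2A, 0.17 ± 0.13 for H2B, 0.24 ± 0.12 for H3 and 0.12 ± 0.11 for H4 on the log2 scale. The intron-bearing counterparts were -0.10 ± 0.07 for H2A, -0.28 ± 0.13 for H2B and -0.24 ± 0.10 for H4. No sum of either kind passed alone, and the difference between the kinds was not tested.

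**Figure D4:**
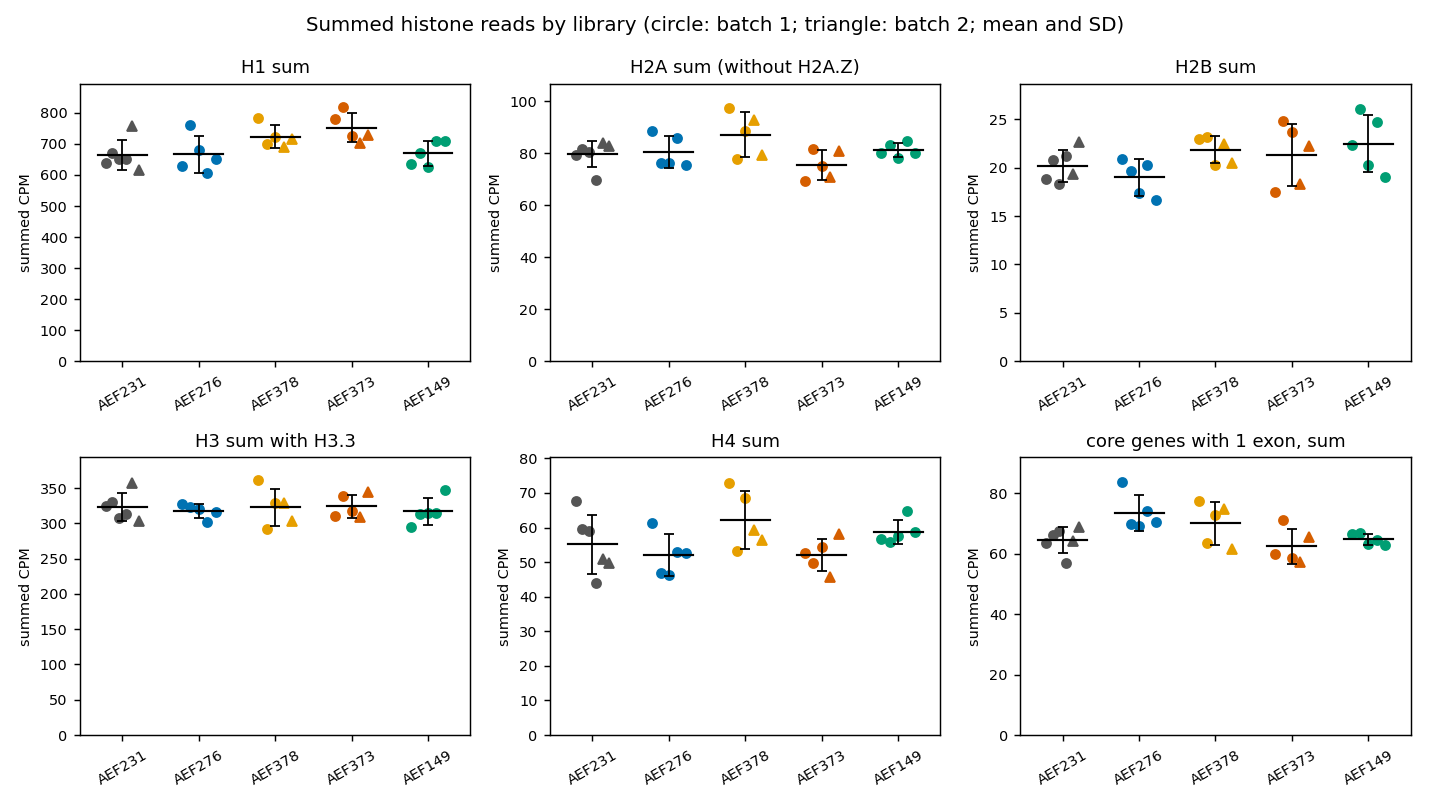
Summed CPM of the H1, H2A, H2B, H3 (with H3.3) and H4 genes and of the 60 single-exon core genes in each library by strain, with circles for batch 1, triangles for batch 2, and the mean and SD. The H1 sum is highest in AEF373, and the single-exon core sum is highest in AEF276.

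AEF378 and AEF373, both sorted and in both batches, were compared directly. AEF378 had 1 histone gene higher and 1 lower, against 3.68% and 5.92% of all genes tested. Its libraries did not overlap with AEF373 for 0 genes on the higher and 1 on the lower side (2.56% and 3.39%). hil-7 was the lower one. his-68 was the higher one, at 0.30 ± 0.10 (edgeR adjusted p = 0.043), a call lost on leaving out any of 16 libraries: AEF231 replicates 1 to 6, AEF276 replicates 2 and 3, AEF373 replicates 1, 3, 4 and 5, and AEF378 replicates 1 to 4 (0.22 to 0.36). By batch, his-38 was also higher in AEF378 in batch 1 (1.09, edgeR adjusted p = 0.015) and not in batch 2 (0.0941, 0.97). his-24, hil-3 and hil-2 did not pass, at -0.17 ± 0.10, -0.21 ± 0.10 and -0.10 ± 0.06. The H2A sum was higher in AEF378 by 0.21 ± 0.06 (adjusted p = 0.027), a call lost without AEF231 replicate 1, AEF373 replicate 1, 3 or 4, or AEF378 replicate 1, 3 or 4 (0.15 to 0.24).

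AEF149 and AEF373 carry arrays with the flp-17 promoter and had the highest flp-17 levels, but differ in background, array and batch. AEF149 had 3 histone genes higher and 6 lower, against 13.2% and 19% of all genes, and 3 and 5 whose libraries did not overlap (8.44% and 10.2%). The 5 linker genes his-24 (-1.25 ± 0.10), hil-7 (-3.44 ± 0.26), hil-3 (-0.97 ± 0.11), hil-2 (-0.61 ± 0.06) and hil-1 (-0.47 ± 0.17) were lower, with edgeR adjusted p from 2.2e-11 for hil-7 to 0.025 for hil-1. The hil-1 call was lost without AEF149 replicate 1 or 5 or AEF373 replicate 1 or 3 (-0.54 to -0.42). The H3 gene his-63 was also lower, at -0.64 ± 0.24 (edgeR adjusted p = 0.033), a call lost without AEF149 replicate 4 or 5 or AEF373 replicate 2 (-0.72 to -0.56 over all leave-outs). his-62 (H2B, 0.54 ± 0.19, adjusted p = 0.026), his-68 (0.30 ± 0.10) and htz-1 (0.17 ± 0.06) were higher. Without AEF373 replicate 1 the calls of his-62, his-68 and htz-1 were all lost, leaving 0 histone genes higher. The his-62 call was also lost without AEF149 replicate 2 (0.40 to 0.63 over all leave-outs), and that of htz-1 without AEF149 replicate 4. The H1 sum was lower, at -0.18 ± 0.06 (adjusted p = 0.026), a call lost without AEF149 replicate 1 or 3 or AEF373 replicate 1 or 2 (-0.20 to -0.14). his-24, hil-3 and hil-2 differed here between strains that both had flp-17 levels far above AEF231. The part of flp-17 level in these differences was not tested.

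Markers of sperm and of moulting differed between the strains as well. Of 33 tested sperm markers (major sperm proteins and other sperm genes, 36 listed), 33 were lower in AEF276, 33 in AEF149 and 5 in AEF373. Over all genes tested these shares were 9.08%, 11% and 16.9%, so the count in AEF373 was near the general rate. The median log2 fold change was -0.54 in AEF373, though few markers passed there, and 0.08 in AEF378. Summed over the 36 genes they stood at 153 to 343 CPM in AEF231, 12.2 to 27.2 in AEF276, 124 to 349 in AEF378, 51.2 to 331 in AEF373 and 26.5 to 66.6 in AEF149, with 2 genes at 0 in every AEF276 library and 1 each in every AEF373 and every AEF149 library. AEF276 and AEF149 are also the strains in which his-24, hil-3 and hil-2 fell. Between batches the order ran the other way: in each of the 3 strains with both, the batch 2 libraries had the highest sperm sums and the lowest his-24. The batch 2 sperm sums were 306 and 343 CPM in AEF231, 349 and 340 in AEF378, and 298 and 331 in AEF373. The his-24 levels of those libraries were 64.7 and 60.3 CPM, 83.6 and 78.6 CPM, and 90.8 and 101 CPM in the same order. In batch 1 the sperm sums were 190, 240, 161 and 153 CPM in AEF231, and 301, 124 and 178 in AEF378. Those of AEF373 were 104, 51.2 and 133 CPM, all below the AEF231 libraries of that batch. The part of sperm content in the his-24 result was not tested.

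Of 19 tested moulting and larval cuticle genes, 11 were higher in AEF378 and 14 in AEF373, at median log2 fold changes of 0.79 and 2.20. Over all genes tested 7.68% and 17.9% were higher in these strains. In AEF276 3 were lower (9.08% of all genes), and in AEF149 1 was higher and 1 lower (6.51% and 11% of all genes). Their sum stood at 99.3 to 140.2 CPM in AEF231, 109.5 to 122 in AEF276, 150.3 to 267 in AEF378, 322 to 619 in AEF373 and 107 to 170.4 in AEF149. Like hil-7, it was highest in AEF373, next in AEF378, and lower in batch 2 than in batch 1 within each of AEF231, AEF378 and AEF373. In AEF276 and AEF149, where hil-7 also rose, the moulting sum overlapped that of AEF231. The part of moulting state in the hil-7 result was not tested.

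**Figure D5:**
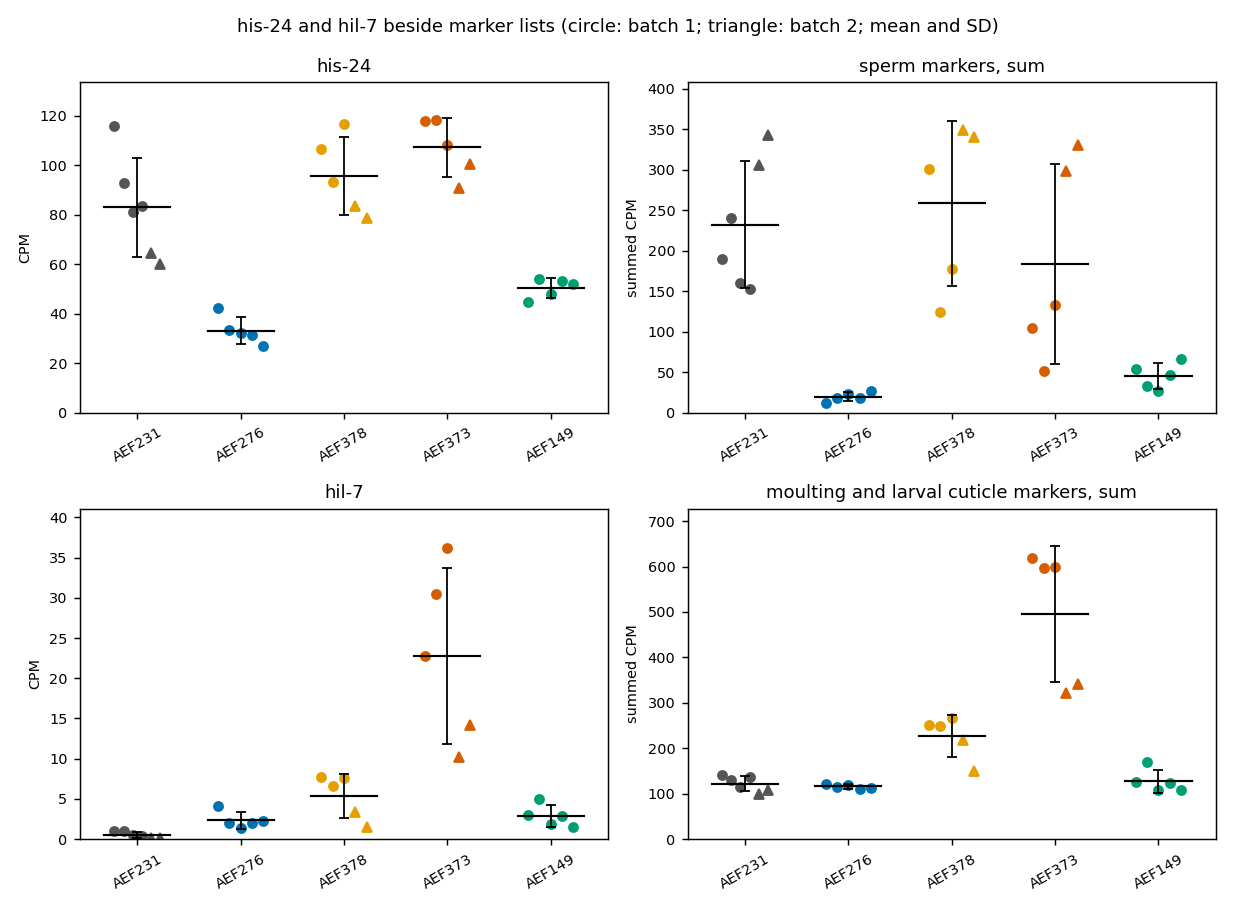
CPM of his-24 and hil-7 (left) beside the summed CPM of 36 sperm markers and 20 moulting and larval cuticle markers (right) in each library by strain, with circles for batch 1, triangles for batch 2, and the mean and SD. Both his-24 and the sperm sum are low in AEF276 and AEF149, and both hil-7 and the moulting sum are highest in AEF373.

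As a description, with genes chosen for this after their values were seen, the 5 genes whose log2 CPM was most like his-24 over the 26 libraries were M163.16 (r = 0.97), hil-3 (0.92), ceh-20 (0.90), cav-1 (0.89) and Y79H2A.2 (0.89). Those most like hil-7 were R09E10.5 (0.96), dpy-7 and mlt-11 (0.94 each), sqt-3 (0.94) and ZC239.14 (0.93). dpy-7 and sqt-3 encode cuticle collagens. The sum of single-exon core genes had weaker likenesses, the strongest being Y50D4A.5 and K10B2.4 (0.70 each). These libraries share strains, batches and depth.

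In 4 lists of genes that work with histones, every gene called in AEF276 was higher there, by small amounts. The shares of all genes tested, against which each count below is to be read, were 11.2% higher and 9.08% lower for AEF276, 7.68% and 5.92% for AEF378, 17.9% and 16.9% for AEF373, and 6.51% and 11% for AEF149. Of 21 DNA replication and S phase genes 16 were higher there (median log2 fold change 0.20, against 0.00 for all genes tested). Examples are rnr-2, a ribonucleotide reductase subunit (0.31 ± 0.07), mcm-4 of the replicative helicase (0.31 ± 0.07), pole-1 of DNA polymerase epsilon (0.29 ± 0.07) and pcn-1, the sliding clamp PCNA (0.20 ± 0.06). In AEF373 10 of the 21 were lower (median -0.13), among them orc-2 of the origin recognition complex (-0.35 ± 0.04) and cdk-2 (-0.32 ± 0.06). AEF378 had 4 lower and AEF149 had 1, cdt-1 (-0.17 ± 0.06). Of 30 oogenic germ line markers 23 were higher in AEF276, 11 lower in AEF378, 12 lower in AEF373, and 3 higher and 2 lower in AEF149, and the part of germ line content in these values was not tested.

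Of 15 histone chaperone and deposition genes 6 were higher in AEF276 (median 0.13): nasp-2 (0.32 ± 0.06) and nasp-1 (0.20 ± 0.05), which encode NASP family chaperones, spt-16 (0.19 ± 0.05) and hmg-3 (0.14 ± 0.05), subunits of the FACT complex, emb-5, the Spt6 homologue (0.17 ± 0.05), and ssl-1 (0.20 ± 0.07), a chromatin remodelling ATPase. AEF373 had 1 higher, ssl-1 (0.19 ± 0.06), and 5 lower, among them chaf-1 of chromatin assembly factor 1 (-0.19 ± 0.06) and hira-1 (-0.14 ± 0.05). AEF378 had 2 lower, lin-53 and rba-1 (-0.17 ± 0.05 and -0.15 ± 0.05), and AEF149 had 1 higher, nasp-2 (0.17 ± 0.06).

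Of 12 genes of histone mRNA 3′ end formation and stability 3 were higher in AEF276: cpsf-2 of the cleavage complex (0.15 ± 0.05), the RNA-dependent RNA polymerase gene ego-1 (0.18 ± 0.06) and ekl-1 (0.16 ± 0.06). AEF373 had 4 lower, including cdl-1, which encodes the stem-loop binding protein (-0.16 ± 0.05), and the Argonaute gene csr-1 (-0.29 ± 0.05), whose pathway takes part in histone mRNA maturation. csr-1 was also lower in AEF378 (-0.24 ± 0.05), with cpsf-4 and drh-3, and in AEF149 (-0.17 ± 0.06). cdl-1 passed in AEF373 alone, and in AEF276 its value was 0.09 ± 0.05. The differences between strains in which of these genes passed were not tested.

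Of 20 histone modification genes 11 were higher in AEF276 (median 0.15), among them mes-2 (0.25 ± 0.06) and mes-3 (0.19 ± 0.05) of the H3 lysine methyltransferase complex PRC2, the demethylase gene spr-5 (0.21 ± 0.06) and the methyltransferase gene set-25 (0.31 ± 0.11). AEF373 had 1 higher, the acetyltransferase gene cbp-1 (0.14 ± 0.05), and 4 lower, the deacetylase genes hda-1 and hda-3, mys-1 and prmt-5 (from -0.24 to -0.18). The 4 of 20 lower there were near the general 16.9%, and the 1 higher was under the general 17.9%. The medians in AEF378 and AEF149 were -0.02 and 0.00.

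Among 6 other histone variant and sperm chromatin genes, 4 were lower in AEF276: htas-1, a sperm H2A variant (-3.58 ± 0.66), and the sperm chromatin genes spch-1 (-2.93 ± 0.43), spch-2 (-3.75 ± 0.62) and spch-3 (-3.07 ± 0.45). The spch genes were also lower in AEF149, at -1.54, -2.22 and -1.55. The sperm markers given above were lower in the same strains. The centromeric H3 variant gene cpar-1 was lower in AEF373 (-0.32 ± 0.06). Of 20 embryo markers 10 passed the filter. In AEF373 2 of these were higher and 3 lower, against 17.9% and 16.9% of all genes tested. In AEF149 0 were higher and 2 lower (6.51% and 11% of all genes). AEF276 and AEF378 each had 1 higher and 1 lower (11.2% and 9.08%, and 7.68% and 5.92% of all genes).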

How the data were processed

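Poly(A) RNA of whole animals was sequenced in 26 libraries of 5 strains, grouped by the strain named in the labels. The authors deposited 1 table of whole-number counts per gene, unnormalized, with 42533 genes. Reads were processed with STAR 2.7.11b and ce11, per the submitters' processing notes. The counter, its treatment of strand and of reads that fit several genes, and the annotation release were not stated in the labels or files used. These choices could change the values of near-identical and overlapping genes.

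Counts were filtered by filterByExpr by strain (13315 genes kept), scaled by TMM and tested with edgeR 4.0.16 in R 4.3.3, by the robust quasi-likelihood test with strain and batch as terms over all 26 libraries, with Benjamini-Hochberg adjustment over all genes tested. Fold changes are on the log2 scale, with SE, and means are given with SD. Sums replaced the rows of their members and kept the library scaling of the whole table. CPM divides counts by the TMM-scaled library total, as edgeR's cpm does. Library totals of 9659877 to 15528669 counts set the precision, and floors cover counting error only. DESeq2 1.42.0, other filters, scalings, batch treatments, replicate blocks and the omission of each library were tried. The fits were run on counts simulated with the fit's own spread and no batch effect. Such a run checks the code and cannot show how well the model suits these data. Over 55 pairs of libraries of the same strain, counts differed beyond sampling noise in each, so none was counted as a repeat.

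Positions, exons and coding lengths came from the Ensembl annotation of WBcel235 with RefSeq gene names (81 of 81 matched). Classes were given by coding length and known gene identity. No genome or gene sequence was used here, so the stem-loop genes planned as a set were replaced by the 60 single-exon core genes. Values in every library are given for genes called against AEF231 with a mean of at least 1 CPM (at most 12, by smallest adjusted p), for the highest gene of each class and for htz-1. Likeness used log2(CPM + 0.5). The members and gene lists were chosen with earlier results of these data known. The within-batch fits, the sum with M163.16, the sums' own TMM factors and the alternatives for the single-exon core sum and for his-62 and his-63 were chosen after seeing the data.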

Additional observations from a re-analysis of the deposited data

Results flagged for a closer look

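Of 105 groups of libraries checked, over genes, sums and strains, 4 had 1 library far from the rest, 3.81%, where chance gives about 5%. hil-7 in AEF276 had its highest library at 4.14 CPM, with the next at 2.19 CPM. hil-4 in AEF231 had its highest library at 317 CPM, with the next at 264 CPM. his-72 in AEF231 had its highest library at 182 CPM, with the next at 155 CPM. The H2A sum in AEF231 had its lowest library at 69.8 CPM, with the next at 79.4 CPM. Between batches, 0 of 90 differences in the strain effects of single histone genes passed in edgeR (7 at an unadjusted p below 0.05, DESeq2 not run for these).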

How the results depend on the processing

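The 35 single-gene differences called above were recomputed under the other settings, only where called and with every library in place unless the setting drops a strain or batch: of 354 values 318 stayed past the threshold, 36 fell short and 0 changed sign. With batch 1 alone the 11 lost were his-24, hil-3, his-40, his-61 and his-68 in AEF373, hil-2 and his-61 in AEF378, his-68 in AEF378 over AEF373, and hil-1, his-62 and his-63 in AEF149 over AEF373. With only the 2 strains the 8 lost were hil-4 and his-61 in AEF276, his-61 in AEF378, his-68 in AEF373 and in AEF378 over AEF373, and hil-1, his-62 and his-63 in AEF149 over AEF373. Without the batch term the 4 lost were his-61 in AEF378, his-68 in AEF373 and in AEF378 over AEF373, and hil-1 in AEF149 over AEF373. Without the filter the 4 lost were his-68 in AEF373 and hil-1, his-62 and his-63 in AEF149 over AEF373. DESeq2 lost his-68 in AEF373, and DESeq2 size factors lost hil-4 in AEF276. Those lost under a block are given below. The calls of his-24, hil-3 and hil-2 in AEF276 and AEF149 and of hil-7 in every strain stayed under each setting tried and each library left out. Class sums near 0 changed sign. H1 in AEF149 was 0.0591 with batch 1 libraries alone, 0.0102 with DESeq2 and with DESeq2 size factors, 0.00923 without the batch term, 0.0134 without the filter, 0.0395 with only the 2 strains compared and 0.00187 with the sums' own TMM factors. H1 in AEF276 was 0.00678 with batch 1 alone and 0.00280 without the batch term. H2A in AEF276 was -0.000825 without the filter and -0.00831 with its own TMM factors. H3 with batch 1 alone was 0.0177 in AEF149, 0.0217 in AEF378, 0.00426 in AEF149 over AEF373 and 0.00831 in AEF378 over AEF373. H3 in AEF378 was 0.000698 without the filter, 0.00278 with only the 2 strains and 0.00594 with its own TMM factors.

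Counts moved with batch 1 alone to 5 higher in AEF276 and 1 higher in AEF378. The 2 lower in AEF373 became 1 with DESeq2, without the batch term and without the filter. The 1 higher in AEF378 over AEF373 became 0 without the batch term and with only the 2 strains, and 3 without the filter. The H2A sum in AEF378 over AEF373 did not pass with batch 1 alone (0.21) or only the 2 strains (0.20), and the H4 sum there passed without the filter (0.24). The single-exon core sum in AEF276 did not pass with batch 1 alone (0.19), DESeq2 (0.17), DESeq2 size factors (0.17), no filter (0.16), no robust weights (0.18), only the 2 strains (0.17) or its own TMM factors (0.15). The causes were not tested.

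Same-numbered libraries of different strains did not deviate together: over 50 pairs the median correlation was -0.030, from -0.19 to 0.15, with 5 over 0.1. With the replicate number as a block, AEF373 had 1 histone gene lower, AEF378 over AEF373 had 0 higher, and the H3 sum in AEF373 was -0.0114. With the labels' group number as the block, the H3 sum in AEF378 was 0.00876. With the replicate number as a block, the calls of hil-2 in AEF378, his-68 in AEF373 and in AEF378 over AEF373, and hil-1 and his-63 in AEF149 over AEF373 were lost too, those of hil-1 and his-63 also with the labels' group number as the block.

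Leaving out each library in turn gave these ranges of genes called: AEF149 higher 1 to 3, AEF149 over AEF373 higher 0 to 4, AEF276 higher 1 to 4, AEF276 lower 3 to 5, AEF373 lower 0 to 4, AEF378 higher 1 to 4 and AEF378 over AEF373 higher 0 to 2. The H1 sum ranged over AEF149 -0.0228 to 0.0607, AEF149 over AEF373 -0.20 to -0.14, AEF276 -0.0857 to 0.0259 and AEF378 0.0909 to 0.17. In AEF378 the H1 sum, not called over all libraries, passed without AEF231 replicate 5 (edgeR adjusted p = 0.026). The H2A sum ranged over AEF149 -0.002197 to 0.07496, AEF276 -0.0523 to 0.0459 and AEF378 over AEF373 0.15 to 0.24. The H3 sum ranged over AEF149 -0.0573 to 0.0278, AEF276 -0.0695 to 0.000875, AEF373 -0.00536 to 0.0408, AEF378 -0.0495 to 0.0382 and AEF378 over AEF373 -0.0643 to 0.0209. The H4 sum ranged over AEF149 -0.0262 to 0.14, AEF373 -0.12 to 0.00427 and AEF378 over AEF373 0.18 to 0.31. In AEF378 over AEF373 it passed without AEF373 replicate 5 or AEF378 replicate 2 (lowest edgeR adjusted p = 0.046). The H2B sum ranged over AEF149 over AEF373 -0.0159 to 0.14 and AEF378 over AEF373 -0.04098 to 0.0871. The single-exon core sum ranged over AEF149 -0.0392 to 0.0372 and AEF276 0.11 to 0.20. The planned stem-loop alternative was not run, since no genome sequence was used here. Depth limits the 24 genes with reads under the filter. A gene with 0 reads over all 26 libraries may have up to 0.0100 CPM. A count of 0 over 1 strain allows up to 0.0439 to 0.0561 CPM, and in 1 library up to 0.193 to 0.311 CPM.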
